A study of Mus musculus with 18 samples.

Results

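Collagen genes of the ileal wall were examined in whole-thickness ileum of 18 mice, with 1 library per mouse. The set comprised every protein-coding gene whose symbol has the form *Col*, number, a, number, except *Col17a1*, which gave 43 genes of the 55487 in the count files. By the known structure of their products, 11 were fibrillar, 8 basement membrane, 1 anchoring fibril, 6 beaded filament, 9 fibril-associated, 3 short-chain network and 3 transmembrane collagens, and 2 belonged to no class. The mice carried an allele for conditional expression of FLAG-tagged *Ppara* with EGFP (CAG-*Ppara*,-*EGFP*), and 6 controls lacked *Villin-CreERT2*, an epithelial Cre activated by tamoxifen, while 6 mice with this Cre carried 1 copy of the allele (IEC-*Ppara* heterozygous) and 6 carried 2 (IEC-*Ppara* homozygous). All were littermates on the C57BL/6J background fed chow, aged 8 to 13 weeks, and all received tamoxifen (100 mg/kg) on 3 days and were collected 2 weeks later. Controls comprised 3 females and 3 males, and each IEC-*Ppara* group comprised 2 females and 4 males. Cre was driven by *Villin* in epithelial cells only, whereas most collagen transcripts of the gut wall come from cells beneath the epithelium. The paper describes the controls as mice with the allele and without Cre, while their data columns are named wt. The labels do not give the number of transgenic alleles in the controls.

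Collagens are triple-helical proteins of the extracellular matrix. Fibrillar collagens (types I, III and V being the main ones of the gut wall) form the load-bearing fibers of the submucosa and are made mainly by fibroblasts and smooth muscle cells. Collagen IV forms the sheet-like network of basement membranes under epithelium and around vessels and muscle cells, and collagens VI, XII and XIV bridge fibers to cells and to each other. The site of the transgene makes one member special: the CAG-*Ppara*,-*EGFP* cassette was inserted in the 3′ UTR of *Col1a1*, which encodes the α1 chain of type I collagen, so that *Col1a1* is both a readout and the host locus of the allele.

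No collagen gene passed the test between genotypes. Of the 43 genes, 31 passed the filter of more than 3 CPM (counts scaled to the library total) in at least 4 libraries, and 0 of these 31 had an adjusted p under 0.05 in edgeR's quasi-likelihood test of homozygous mice against controls, heterozygous mice against controls or homozygous against heterozygous mice. Over all 12645 genes tested, 0.411%, 0.293% and 0.00791% passed in these comparisons. At the study's threshold of an unadjusted p under 0.001, 0 members passed in each comparison as well, against 0.72%, 0.554% and 0.166% of all genes. At an unadjusted p under 0.05, 2 members passed for homozygous mice against controls (*Col4a6* and *Col27a1*), 1 for heterozygous mice against controls (*Col20a1*) and 2 for homozygous against heterozygous mice (*Col27a1* and *Col24a1*), against 8.06%, 5.29% and 7.61% of all genes. DESeq2 also gave 0 collagen genes with an adjusted p under 0.05 in each comparison, where it called 1.08%, 0.633% and 0.0791% of all genes, and so did limma-voom, where it called 0.403%, 0.269% and 0.00791%. The CPM of 2 genotypes did not overlap for 0 of the 31 genes in each comparison, against 0.854%, 0.467% and 0.269% of all genes. In the tissue as a whole, fewer cells of a type and less RNA per cell cannot be told apart.

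**Figure D1:**
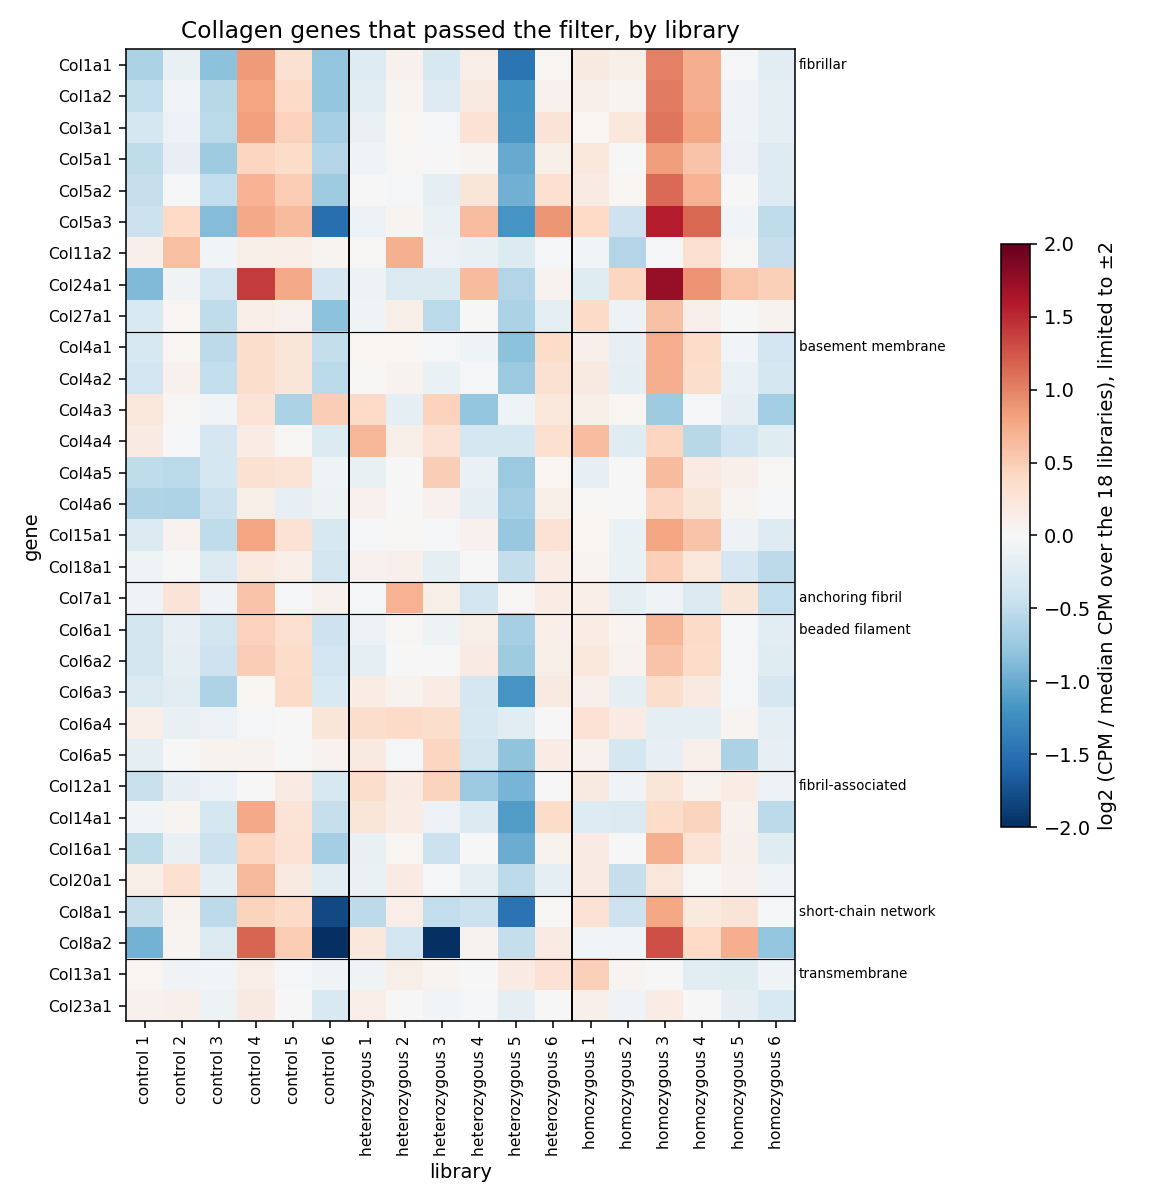
Level of the 31 collagen genes that passed the filter (rows, by class) in each of the 18 libraries (columns, by genotype), as log2 of the CPM over the gene's median, with colors limited to 2 in either direction. Homozygous 3 and control 4 are high and heterozygous 5 is low across the fibrillar and most basement membrane genes, and libraries of each genotype lie on both sides of the median.

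The deposited counts summed to between 38528522 and 50376371 per library. *Ppara* checked the labels of controls against IEC-*Ppara* mice, as controls had 25.8 to 47.4 CPM, heterozygous mice had 107 to 196 CPM and homozygous mice had 184 to 279 CPM. It did not check the heterozygous against the homozygous labels, since heterozygous 6 (196 CPM) lay above homozygous 2 and homozygous 3 (184 CPM each). The intestinal markers *Epcam*, *Vil1* and *Fabp6* had at least 2208, 2088 and 1914 CPM in every library. Control 6 and heterozygous 3 stood apart, with a smooth muscle score (mean log2 CPM of 10 muscle genes) of 4.92 and 5.15, against at least 7.06 in the other libraries, and with the mesothelial gene *Upk3b* at 0 counts. B cell genes were high in 4 libraries (control 2, control 3, heterozygous 2 and homozygous 1). Results were therefore also computed without each of these sets.

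Collagen transcripts made up 0.248 to 0.83% of all counts. The mean was 0.463 ± 0.156% (SD, n = 6) in controls, 0.447 ± 0.103% in heterozygous mice and 0.561 ± 0.163% in homozygous mice. Fibrillar collagens took 47.4 ± 4.92% of collagen counts in controls, 46.2 ± 4.21% in heterozygous mice and 51.3 ± 3.78% in homozygous mice. Basement membrane collagens took 21.6 ± 1.85%, 22.4 ± 1.78% and 20 ± 0.919% in the same order. The ratio of fibrillar to basement membrane counts ranged from 1.83 to 2.97 in controls, from 1.61 to 2.67 in heterozygous mice and from 2.22 to 2.89 in homozygous mice, so the ranges overlapped. The composition was given as a description and was not tested.

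Per length, *Col3a1* led in controls at 95.2 ± 41.8 RPKM (CPM divided by gene length in kilobases, mean ± SD, n = 6). It was followed by *Col6a1* (85.9 ± 24.2), *Col1a1* (81.2 ± 41.5), *Col4a1* (56.6 ± 14.9), *Col4a2* (47.4 ± 12.8), *Col6a2* (43.4 ± 13.1) and *Col1a2* (40 ± 17.8). Each neighbor in this order differed from the next by less than the larger of their 2 SDs, although *Col1a1* and *Col4a1* differed by more than the SD of *Col4a1*. The beaded filament gene *Col6a3* (21 ± 5.17), the basement membrane gene *Col18a1* (17 ± 2.61) and *Col6a4* (15.6 ± 1.67) came next. *Col2a1*, the main fibrillar collagen of cartilage, had 0 to 14 counts per library, and *Col10a1*, a product of hypertrophic chondrocytes, had 0 to 8. In all, 12 members did not pass the filter (*Col2a1*, *Col11a1*, *Col6a6*, *Col9a1*, *Col9a2*, *Col9a3*, *Col19a1*, *Col22a1*, *Col10a1*, *Col25a1*, *Col26a1* and *Col28a1*), and of these *Col9a2* reached the highest level, at 3.98 CPM in homozygous 3.

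**Figure D2:**
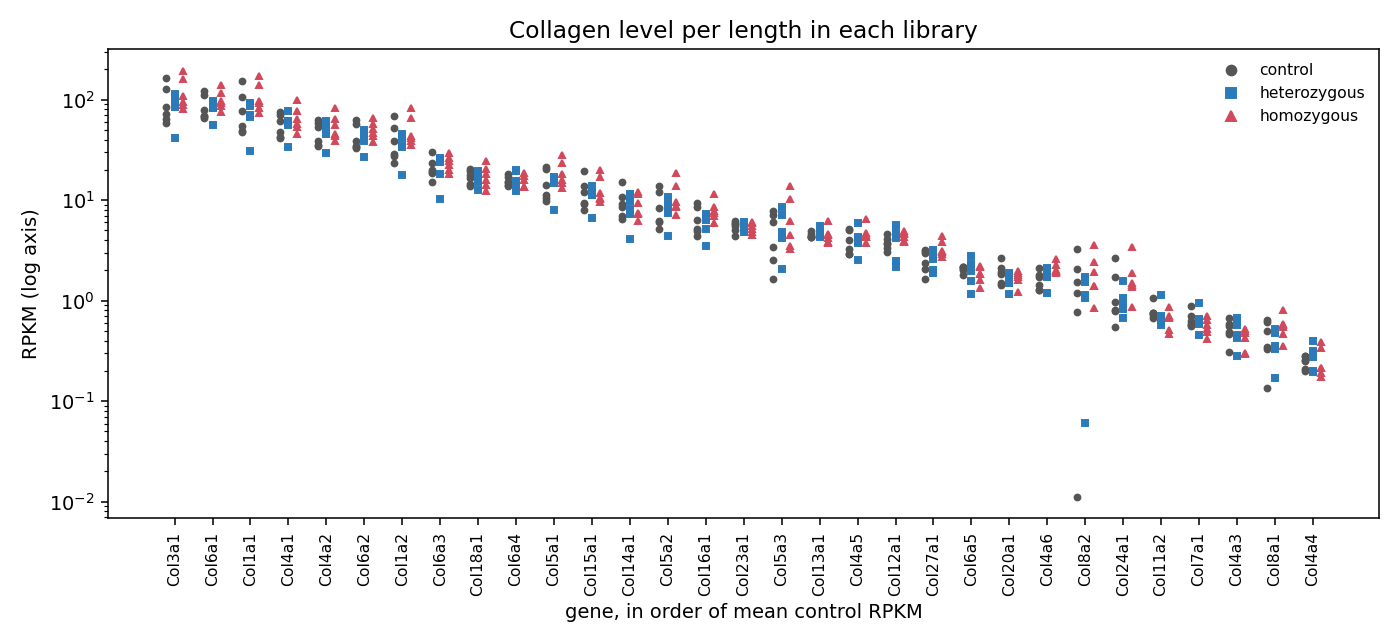
RPKM of the 31 collagen genes that passed the filter, on a log axis, ordered by the control mean, with 1 point per library and 6 libraries per genotype. Levels run from *Col3a1* (95.2 RPKM) to *Col4a4* (0.246 RPKM) in controls, and the genotypes overlap at every gene, with *Col8a2* in control 6 and heterozygous 3 far below the other libraries.

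Most fibrillar collagens had higher point estimates in homozygous mice than in the other genotypes, and none passed the test. Of the 9 fibrillar genes that passed the filter, 8 had a positive log2 fold change for homozygous mice against controls (median 0.39) and 3 had one for heterozygous mice against controls (median -0.06), while the median over all genes tested was -0.0048 and -0.0058. For homozygous against heterozygous mice the median was 0.39, with 8 of 9 positive. Apart from *Col11a2*, these genes correlated with *Col1a1* across libraries, so that the 9 are not 9 separate observations. The sign of the fibrillar median for heterozygous mice against controls depended on single libraries. It was 0.147 without control 4, 0.0921 without heterozygous 5, 0.0444 without control 5 and -0.116 without control 3. With the smooth muscle score as a covariate the medians were 0.185, 0.02 and 0.155, and with a score of 5 mesothelial genes, chosen after the values were seen, they were 0.22, 0.01 and 0.18. Without control 6 and heterozygous 3 the fibrillar medians were 0.319, -0.0786 and 0.359, and *Col1a1* had a log2 fold change of 0.35 (SE 0.3) for homozygous mice against controls. Smooth muscle genes had point estimates in the same directions: 10 of 10 were higher in homozygous mice than in controls (median 0.57) and 10 of 10 were lower in heterozygous mice (median -0.19), with 0 called by edgeR in either comparison and 0 in both at an unadjusted p under 0.05. For homozygous against heterozygous mice 10 of 10 were positive (median 0.74), with 0 called and 1, *Tagln*, at an unadjusted p under 0.05. The part of muscle content in the fibrillar values was not tested beyond this covariate.

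*Col1a1* (ENSMUSG00000001506, chr11:94936224-94953042, GRCm38, plus strand) had 316, 431 and 1004 CPM as the lowest, median and highest value in controls. In heterozygous mice these values were 203, 520 and 613 CPM, and in homozygous mice they were 480, 618 and 1125 CPM. The lowest library was heterozygous 5 and the highest were homozygous 3 and control 4, so that all 3 genotypes shared the range from 480 to 613 CPM. The log2 fold change was 0.44 (SE 0.29, 95% interval -0.16 to 1.05, edgeR adjusted p = 0.723) for homozygous mice against controls, -0.11 (SE 0.29, interval -0.71 to 0.49, adjusted p = 0.9996) for heterozygous mice against controls and 0.55 (SE 0.29, interval -0.05 to 1.15, adjusted p = 0.642) for homozygous against heterozygous mice. In linear terms the first interval ran from 0.897-fold to 2.06-fold. A doubling of *Col1a1* and no change both lay within it.

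The partner chain of type I collagen, *Col1a2* (chr6:4504814-4541544, plus strand), had 290, 419 and 863 CPM in controls, 219, 474 and 569 CPM in heterozygous mice and 435, 529 and 1033 CPM in homozygous mice (lowest, median, highest). The order of libraries was nearly that of *Col1a1* (Spearman's rho = 0.981 over 18 libraries). Because *Col1a2* lies on another chromosome and carries no insertion, the ratio of *Col1a1* to *Col1a2* counts within a library was used to set the host locus against its partner. This ratio was 0.93 to 1.16 in controls, 0.926 to 1.14 in heterozygous mice and 1.09 to 1.18 in homozygous mice. Control 4 and control 6 lay within the homozygous range, and the other 4 controls lay below it. The geometric mean was 1.05 in controls, 1.06 in heterozygous mice and 1.13 in homozygous mice. On the log2 scale homozygous mice exceeded controls by 0.11 (two-sided exact permutation test, p = 0.0541, adjusted over 3 comparisons p = 0.0812) and heterozygous mice by 0.09 (exact p = 0.0368, adjusted p = 0.0812), while heterozygous mice and controls differed by 0.02 (exact p = 0.797, adjusted p = 0.797). The first difference passed the adjusted threshold when control 4 was left out (0.14, exact adjusted p = 0.026), and the second passed it when heterozygous 2 was left out (0.11, exact adjusted p = 0.0195). Without control 3 the first difference fell to 0.07 (exact adjusted p = 0.156), and without heterozygous 5 the second fell to 0.051 (exact adjusted p = 0.117). Without the 4 libraries high in B cell genes the first difference was 0.048 (exact adjusted p = 0.488) and the second 0.098 (exact adjusted p = 0.0476). An effect of the inserted cassette on *Col1a1* and an effect of genotype on fibrillar collagens cannot be told apart for the *Col1a1* level itself. By the paper's description controls carried the cassette too, in a number of copies that the labels do not give.

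**Figure D3:**
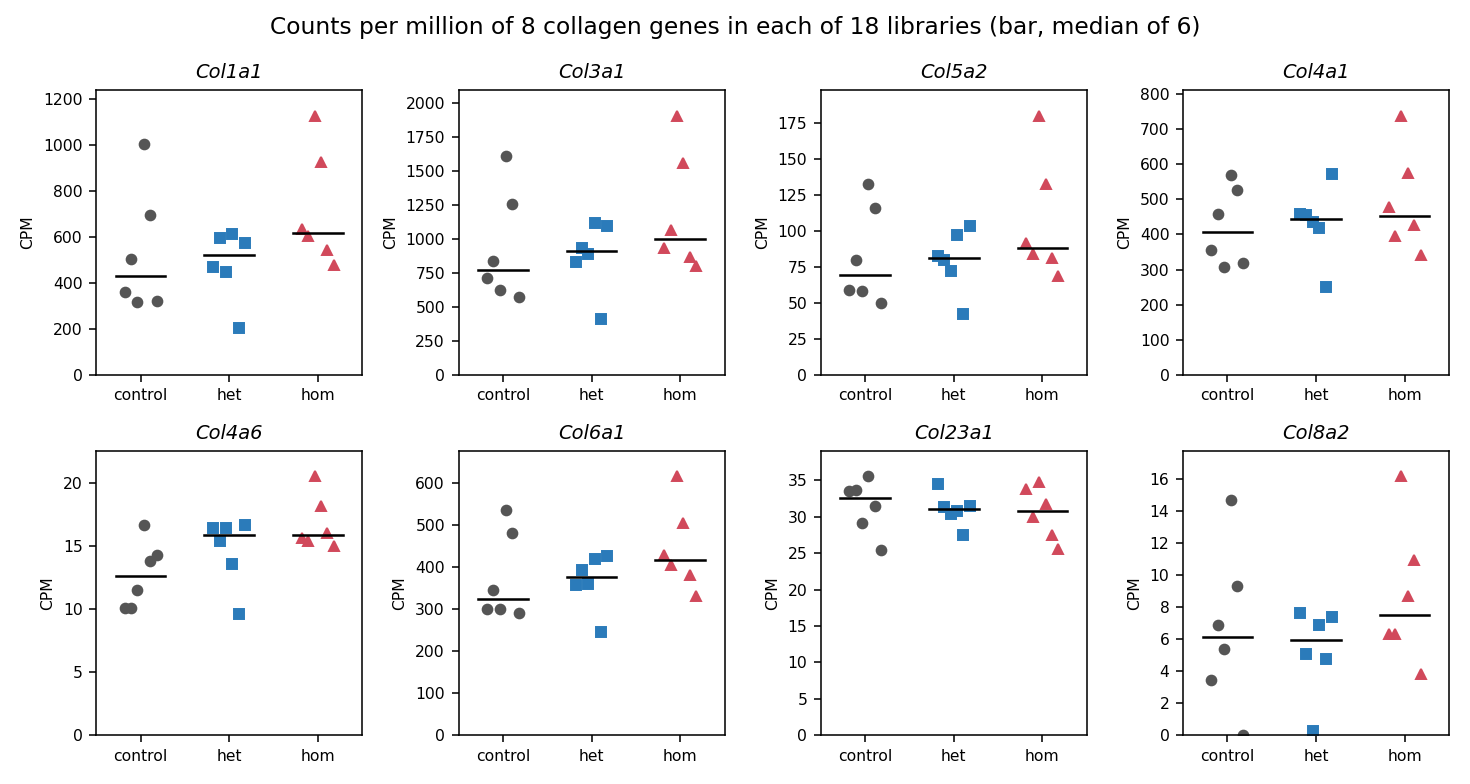
CPM of 8 collagen genes in each of the 18 libraries, with 1 point per mouse, on axes that start at 0, and with a bar at the median of each genotype (6 libraries). For *Col1a1* the medians are 431, 520 and 618 CPM, and the points of the 3 genotypes overlap in every panel.

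Genes beside the insertion site were examined in the same way. Within 250 kb of *Col1a1* the count files hold 11 other protein-coding genes, of which 5 passed the filter (*Sgca*, *Ppp1r9b*, *Samd14*, *Pdk2* and *Itga3*). The largest shift among them was that of *Sgca*, which encodes a sarcoglycan of muscle membranes, with a log2 fold change of 0.67 (SE 0.3, edgeR adjusted p = 0.642) for homozygous against heterozygous mice, -0.57 (SE 0.3) for heterozygous mice against controls and 0.10 (SE 0.3) for homozygous mice against controls. For homozygous mice against controls the other 4 had log2 fold changes from -0.02 to 0.15. None of the 5 had an adjusted p under 0.05 in any of the 3 comparisons.

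*Col3a1* (chr1:45311538-45349706, plus strand), the α1 chain of type III collagen, had 575, 772 and 1610 CPM in controls, 408, 911 and 1114 CPM in heterozygous mice and 798, 998 and 1904 CPM in homozygous mice (lowest, median, highest). Homozygous 3 was the only homozygous library above control 4, and heterozygous 5 was the lowest of all. Its log2 fold change for homozygous mice against controls was 0.36 (SE 0.27, interval -0.20 to 0.91, adjusted p = 0.754 in edgeR). The minor fibril chains of type V, which set the diameter of type I fibrils, gave 0.39 for *Col5a1* (SE 0.21), 0.37 for *Col5a2* (SE 0.26) and 0.54 for *Col5a3* (SE 0.41) in the same comparison. *Col5a2* had 50, 69.5 and 133 CPM in controls, 42.2, 81.4 and 104 CPM in heterozygous mice and 68.8, 87.9 and 180.1 CPM in homozygous mice. It lies 24614 bases from *Col3a1* on the opposite strand.

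Among fibrillar genes the lowest p belonged to *Col27a1*, a collagen known from cartilage. It had 21.6, 35 and 41.7 CPM in controls, 24.5, 34.8 and 41.4 CPM in heterozygous mice and 35.6, 40.5 and 57.4 CPM in homozygous mice. The homozygous mice overlapped the upper controls and heterozygous mice, at 35.6 to 41.7 CPM. Its log2 fold change was 0.40 (SE 0.15, adjusted p = 0.468 in edgeR) for homozygous mice against controls and 0.36 (SE 0.15, adjusted p = 0.642) against heterozygous mice. With the smooth muscle covariate these values were 0.22 (SE 0.1) and 0.14 (SE 0.11). *Col24a1*, a minor fibrillar collagen, had 6.58 to 25.9 CPM in homozygous mice, 5.19 to 12 CPM in heterozygous mice and 4.21 to 20.4 CPM in controls. *Col11a2* went the other way, with a log2 fold change of -0.27 (SE 0.17, adjusted p = 0.704 in edgeR) for homozygous mice against controls at 3.2 to 7.82 CPM over all libraries.

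Basement membrane collagens also had mostly positive point estimates in homozygous mice. All 8 passed the filter, 7 of them had a positive log2 fold change for homozygous mice against controls (median 0.18) and 6 for heterozygous mice against controls (median 0.06). For homozygous against heterozygous mice the median was 0.17. With the smooth muscle covariate the medians were 0.04, 0.09 and -0.01 in these 3 comparisons. Without control 6 and heterozygous 3 they were 0.132, 0.0258 and 0.158. Leaving out homozygous 3 lowered the median to 0.0485 against controls and to 0.0348 against heterozygous mice, and leaving out control 4 raised the first to 0.312. The median for heterozygous mice against controls was 0.000606 without control 3 and -0.0108 without heterozygous 6. It was 0.144 without control 4 and 0.169 without heterozygous 5. Endothelial genes, whose cells also lay down collagen IV, had medians of 0.08, -0.01 and 0.08. The difference between the fibrillar and the basement membrane medians was not tested.

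*Col4a1* (chr8:11198423-11312826, minus strand) encodes a chain of the collagen IV network found in nearly all basement membranes. It had 309, 406 and 569 CPM in controls, 251, 444 and 572 CPM in heterozygous mice and 342, 453 and 738 CPM in homozygous mice (lowest, median, highest). The 3 genotypes overlapped from 342 to 569 CPM. The log2 fold change was 0.23 (SE 0.18, interval -0.16 to 0.62, edgeR adjusted p = 0.784) for homozygous mice against controls. *Col4a2* (chr8:11312805-11449287, plus strand), which encodes the other chain of the same network, gave 0.23 (SE 0.18, interval -0.15 to 0.61, adjusted p = 0.781). Its lowest, median and highest values were 228, 303 and 419.6 CPM in controls, 196, 330 and 408 CPM in heterozygous mice and 259.8, 336 and 545 CPM in homozygous mice. The ratio of *Col4a1* to *Col4a2* counts was 1.3 to 1.4 in controls, 1.28 to 1.45 in heterozygous mice and 1.29 to 1.42 in homozygous mice, with a geometric mean of 1.35 in each genotype. On the log2 scale the means of homozygous mice and controls were 0.43 and 0.43 (exact permutation p = 0.994), with SDs of 0.05 and 0.04, while the SD of the *Col4a1* level within genotypes was 0.34.

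These genes are annotated head to head, and their 5′ ends overlap by 22 bases on opposite strands. A single window of 300 bases around the start of *Col4a2* (RefSeq promoter table, GRCm38.p6, chr8:11312555-11312854, plus strand) therefore covers both starts. It is printed 5′ to 3′ beside the windows of *Col1a2* (chr6:4505368-4505667, plus strand, around the RefSeq start, which lies inside the gene as annotated in the count files) and *Col3a1* (chr1:45311288-45311587, plus strand), since each of these genes moved closely with a partner. Capitals mark CCAAT on either strand (ATTGG as printed), and *Col1a1* is not among the promoters matched.

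Col4a2: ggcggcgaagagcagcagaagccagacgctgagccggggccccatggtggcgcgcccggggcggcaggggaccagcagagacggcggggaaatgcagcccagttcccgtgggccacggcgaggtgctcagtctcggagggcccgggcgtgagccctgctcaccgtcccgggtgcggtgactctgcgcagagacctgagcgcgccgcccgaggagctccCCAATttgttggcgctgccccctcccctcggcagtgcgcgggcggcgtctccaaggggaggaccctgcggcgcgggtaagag

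Col1a2: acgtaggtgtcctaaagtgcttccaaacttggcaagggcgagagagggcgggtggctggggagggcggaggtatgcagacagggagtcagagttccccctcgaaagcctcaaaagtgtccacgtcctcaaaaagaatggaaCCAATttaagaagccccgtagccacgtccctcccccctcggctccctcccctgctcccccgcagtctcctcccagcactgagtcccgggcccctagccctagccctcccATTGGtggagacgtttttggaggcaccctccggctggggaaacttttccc

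Col3a1: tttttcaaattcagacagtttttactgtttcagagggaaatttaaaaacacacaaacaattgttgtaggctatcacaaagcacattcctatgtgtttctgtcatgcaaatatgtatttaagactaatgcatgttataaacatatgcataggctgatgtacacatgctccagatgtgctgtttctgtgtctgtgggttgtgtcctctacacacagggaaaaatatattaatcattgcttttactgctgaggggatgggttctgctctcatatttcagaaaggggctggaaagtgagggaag

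The windows differ in base composition, with 73.7% G and C in that of *Col4a2*, 61% in that of *Col1a2* and 37.7% in that of *Col3a1*. CCAAT occurred once in the *Col4a2* window and at 2 places in the *Col1a2* window, on opposite strands. TATAAA was found in the *Col3a1* window only among the 3. GGGCGG occurred at 3 places in the *Col4a2* window and at 2 in the *Col1a2* window. Of the 43 genes, 34 matched an entry of the table by symbol, and 12 of these held CCAAT, 4 TATAAA and 22 GGGCGG on either strand, while 37.4%, 13.6% and 35.7% of all 32851 promoter windows did. The half-site AGGTCA, the core of elements bound by nuclear receptors such as PPARα, was in 8 of the 34. Over all windows 16.3% held it. A pair of such half-sites with 1 base between them (AGGTCANAGGTCA) were in 0 of the 34 and in 0.0396% of all windows. These are matches of letters and were not tested as binding sites.

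*Col4a5* and *Col4a6* encode chains of a network typical of basement membranes around smooth muscle and in some epithelia, and they too lie head to head, on the X chromosome, 1308 bases apart. *Col4a6* had the lowest p of all collagen genes for homozygous mice against controls. It had 10.1, 12.7 and 16.7 CPM in controls, 9.6, 15.9 and 16.7 CPM in heterozygous mice and 15, 15.9 and 20.5 CPM in homozygous mice (lowest, median, highest). Of the 6 controls only control 4, at 16.7 CPM, entered the homozygous range, which overlapped most of the heterozygous libraries. The log2 fold change was 0.40 (SE 0.13, interval 0.12 to 0.68, adjusted p = 0.397 in edgeR) for homozygous mice against controls, 0.23 (SE 0.13, adjusted p = 0.9996) for heterozygous mice against controls and 0.17 (SE 0.13, adjusted p = 0.725) for homozygous against heterozygous mice. With the smooth muscle covariate the first value was 0.43 (SE 0.15, edgeR adjusted p = 0.516). Without the 4 libraries high in B cell genes, neither *Col4a6* nor *Col27a1* kept an unadjusted p under 0.05 in edgeR for homozygous mice against controls. *Col4a5* gave 0.26 (SE 0.18, adjusted p = 0.732) for homozygous mice against controls.

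*Col4a3* and *Col4a4*, chains known from specialized basement membranes such as that of the kidney glomerulus, were low, at 2.82 to 6.78 and 1.83 to 4.24 CPM over all libraries. Their annotated ends lie 71 bases apart on opposite strands. *Col4a3* had a log2 fold change of -0.30 (SE 0.23) and *Col4a4* one of 0.04 (SE 0.21) for homozygous mice against controls. *Col15a1* and *Col18a1*, whose products sit at the outer face of basement membranes and release endostatin-like fragments, gave 0.14 (SE 0.20) and 0.05 (SE 0.13). *Col15a1* had 51.1, 67.9 and 125 CPM in controls, 42.6, 72.3 and 88.5 CPM in heterozygous mice and 60.3, 71 and 126 CPM in homozygous mice. *Col18a1* had 96.5, 120 and 142 CPM in controls, 88.7, 127 and 138 CPM in heterozygous mice and 86.5, 121 and 171 CPM in homozygous mice.

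**Figure D4:**
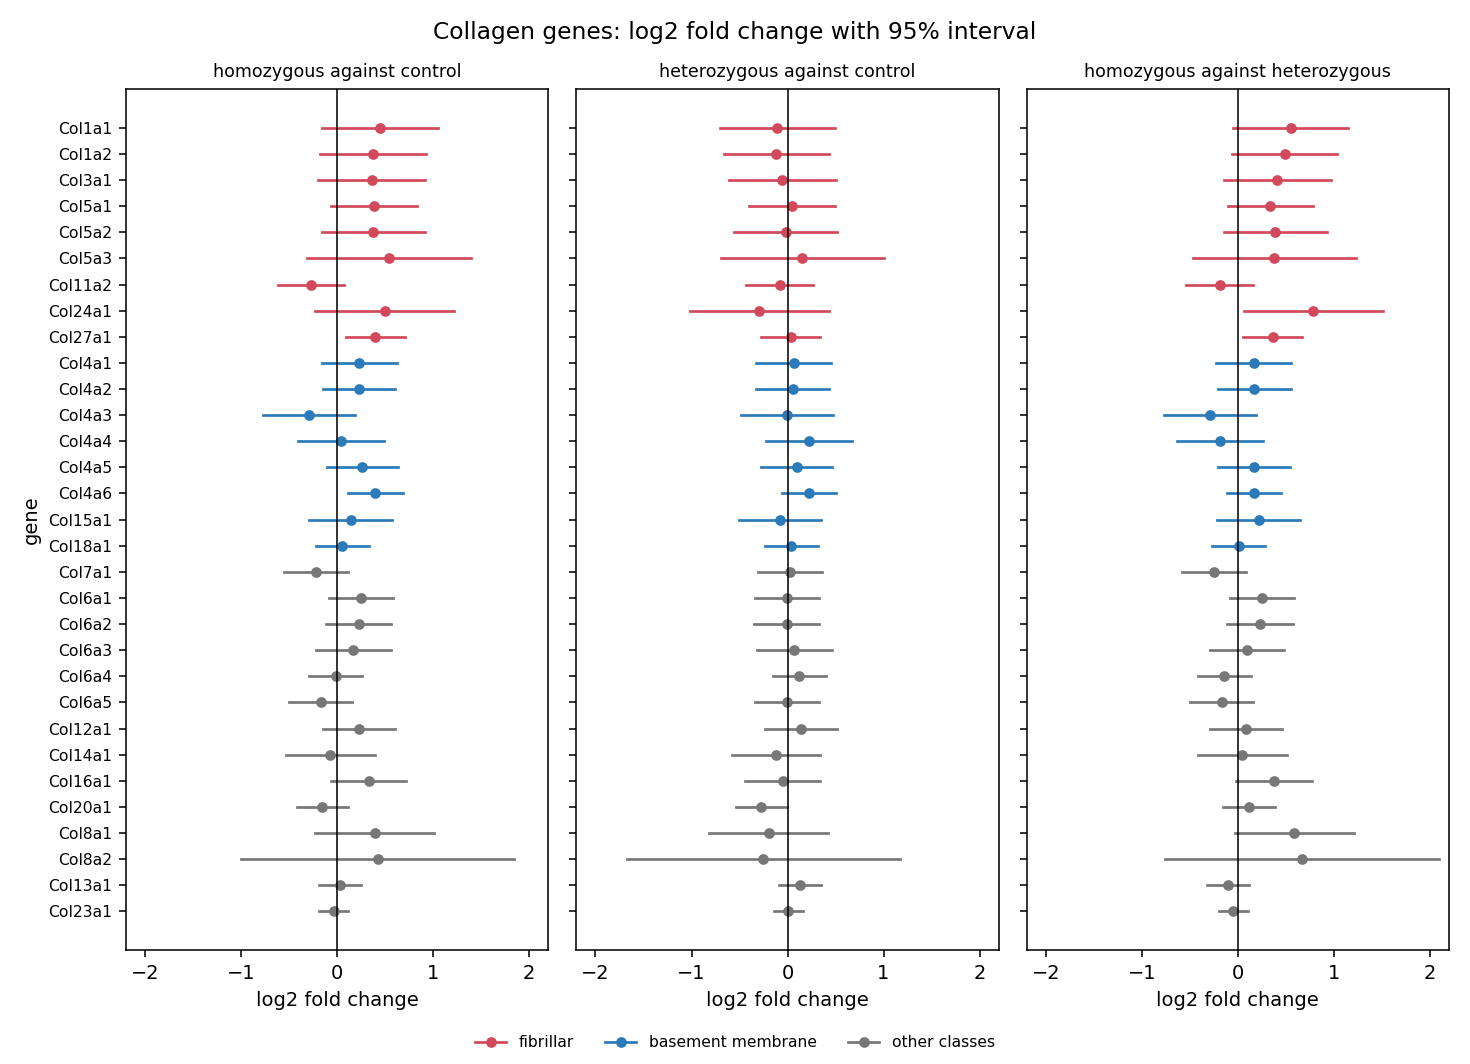
Log2 fold change (point) and its 95% interval (line) from edgeR for the 31 collagen genes that passed the filter in the 3 comparisons of genotypes, with 6 libraries per genotype. For homozygous mice against controls the intervals of *Col27a1* and *Col4a6* exclude 0 before adjustment, and the widest interval is that of *Col8a2*, from -0.999 to 1.84.

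Beaded filament collagens (type VI, which links cells to the matrix) did not all share a sign. *Col6a1*, *Col6a2* and *Col6a3* had log2 fold changes of 0.25 (SE 0.16), 0.22 (SE 0.16) and 0.17 (SE 0.18) for homozygous mice against controls and -0.0021 (SE 0.16), -0.01 (SE 0.16) and 0.07 (SE 0.18) for heterozygous mice. *Col6a1* had 291, 324 and 536 CPM in controls, 246, 377 and 427 CPM in heterozygous mice and 331, 417 and 617 CPM in homozygous mice. In the same order *Col6a2* had 277, 304 and 523 CPM, 226, 369.8 and 416 CPM and 314, 407 and 546 CPM, and *Col6a3* had 179.9, 232 and 358 CPM, 122, 298 and 314 CPM and 219.6, 283 and 351 CPM. *Col6a4* and *Col6a5*, the long chains that can replace the α3 chain, had negative values for homozygous mice against controls, -0.02 (SE 0.13) and -0.17 (SE 0.16). *Col6a4* stayed between 106 and 171 CPM in all 18 libraries. None of these 5 genes passed the test.

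Fibril-associated collagens sit on the surface of fibrils. *Col16a1* gave 0.33 (SE 0.19, adjusted p = 0.687 in edgeR) for homozygous mice against controls, and *Col12a1* and *Col14a1*, which tune the spacing of fibrils, gave 0.22 (SE 0.18) and -0.07 (SE 0.22). *Col12a1* ranged from 46.3 to 70.4 CPM in controls, whereas heterozygous mice had 32.9 to 85.4 CPM and homozygous mice had 58.3 to 74.5 CPM. *Col14a1* had 45.3 to 105 CPM, 28.5 to 79.9 CPM and 43.4 to 84.9 CPM in the same order, with no order of the genotypes. *Col20a1* had the lowest p for heterozygous mice against controls, with a log2 fold change of -0.27 (SE 0.13, adjusted p = 0.942 in edgeR), at 6.06 to 9.71 CPM against 7.41 to 13.6 CPM.

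The other classes held both the most variable and the steadiest collagen genes. *Col8a2*, a short-chain network collagen known from the cornea and vessel wall, had 3.43 to 14.7 CPM in 5 controls and 0.0504 CPM in control 6, and 4.75 to 7.66 CPM in 5 heterozygous mice and 0.274 CPM in heterozygous 3. In homozygous mice it ranged from 3.83 to 16.2 CPM. Both low libraries were those with the low smooth muscle score and without *Upk3b*. Its log2 fold change for homozygous mice against controls was 0.42 (SE 0.68) with all libraries and 0.16 (SE 0.34) without these 2, and for homozygous against heterozygous mice it was 0.67 (SE 0.68) with all libraries and 0.42 (SE 0.34) without them. With the smooth muscle covariate both values turned negative, at -0.48 (SE 0.29, edgeR adjusted p = 0.908) and -0.68 (SE 0.3, adjusted p = 0.9996). *Col8a1*, which encodes another short-chain network collagen, spanned 1.06 to 5.04 CPM in the control group. Heterozygous mice had 1.33 to 4.07 CPM and homozygous mice 2.78 to 6.35 CPM, so that the genotypes overlapped. Its log2 fold change was 0.39 (SE 0.29, edgeR adjusted p = 0.763) for homozygous mice against controls and 0.59 (SE 0.29, adjusted p = 0.642) for homozygous against heterozygous mice, and with the smooth muscle covariate these values were 0.15 and 0.17. *Col9a2* and *Col11a1*, below the filter, had 0 counts in control 6, which allows up to 0.0756 CPM there by counting error, against 0.782 to 3.98 CPM for *Col9a2* in the libraries other than control 6 and heterozygous 3 (0.253 CPM).

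*Col13a1* and *Col23a1* encode transmembrane collagens, which are held in the cell membrane rather than built into fibrils. *Col23a1* had 25.4, 32.5 and 35.5 CPM in controls, 27.4, 31.1 and 34.4 CPM in heterozygous mice and 25.6, 30.8 and 34.7 CPM in homozygous mice. Its SD of log2 CPM within genotypes was 0.12, at the 17.5th percentile of all genes tested, whereas that of *Col1a1* was 0.54, at the 92.8th percentile. For homozygous mice against controls the log2 fold change of *Col23a1* was -0.04 (SE 0.07, interval -0.19 to 0.11), the narrowest interval of the set, and that of *Col13a1* was 0.03 (SE 0.1). *Col7a1*, the anchoring fibril collagen that ties the epithelial basement membrane to the stroma, gave -0.22 (SE 0.16, adjusted p = 0.748) at 4.33 to 9.85 CPM.

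The spread between mice set what could be seen. The median SD of log2 CPM within genotypes was 0.19 over all genes tested, 0.49 over the 9 fibrillar and 0.34 over the 8 basement membrane collagens. The half-width of the 95% interval of a log2 fold change had a median of 0.55 for fibrillar, 0.38 for basement membrane and 0.185 for transmembrane collagens. Of the 31 genes, 19 were highest in homozygous 3 and 18 were lowest in heterozygous 5. The median log2 fold change of fibrillar collagens for homozygous mice against controls was 0.21 without homozygous 3 and 0.56 without control 4. Without control 4, 11 of 31 collagen genes had an unadjusted p under 0.05 in edgeR, against 10.9% of all genes in that fit, and 0 had an adjusted p under 0.05 (lowest 0.21). Without the 4 libraries high in B cell genes, 0 of 31 had an unadjusted p under 0.05 in the same comparison (lowest edgeR adjusted p 0.901). For homozygous against heterozygous mice the fibrillar median was 0.24 without homozygous 3 and 0.27 without heterozygous 5. In either case 0 members had an unadjusted p under 0.05 in edgeR. With all libraries 2 of 31 members did, which is near the 7.61% of all genes. The share of all genes is given here only for the fits with all libraries and without control 4, so the other counts are descriptions.

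Across the 18 libraries, most collagen genes varied together. Of 30 other members, 20 correlated with *Col1a1* in log2 CPM at an adjusted p under 0.05 over these 30 (100000 permutations), all of them positively, and 9 had Pearson's r above 0.9. These 20 were also the members with r above 0.5, which 17.4% of the other genes tested exceeded, while 0.316% had r above 0.9. The chosen pairs formed a family of 18, of which 12 were planned. The pairs with *Upk3b*, those of *Col8a2* with cell markers, *Col4a3* with *Col4a4* and *Col4a5* with *Col4a6* were added to the plan later. The p-values of the added pairs are therefore descriptive. *Col1a1* with *Col1a2* gave r = 0.99 and rho = 0.981 (permutation p = 1e-05 for both, the smallest the permutations can give, adjusted p = 2.25e-05 for r). Without the 2 libraries farthest from the *Col1a1* median r was 0.986, and within controls, heterozygous and homozygous mice it was 0.989, 0.997 and 0.996. *Col1a1* with *Col3a1* gave r = 0.978, *Col6a1* with *Col6a2* 0.985, *Col4a1* with *Col4a2* 0.989 and *Col1a1* with *Col4a1* 0.899 (0.815 without the 2 farthest libraries). The head-to-head pair *Col4a5* and *Col4a6* gave r = 0.852 (rho = 0.692), while *Col4a3* and *Col4a4* gave r = 0.3 (permutation p = 0.228, adjusted p = 0.228). Apart from *Col8a2*, the members with an adjusted p of 0.05 or more for r were *Col11a2* (r = 0.044), *Col7a1* (-0.0723), *Col13a1* (-0.262), *Col6a4* (-0.284), *Col6a5* (0.11), *Col4a4* (0.119), *Col23a1* (0.317), *Col4a3* (-0.401) and *Col12a1* (0.441). *Col8a2* did not pass by r (0.489), but its rho with *Col1a1* was 0.728 (adjusted permutation p = 0.0018), and r was 0.71 without control 6 and heterozygous 3. Conversely *Col20a1*, which passed by r (0.524), had a rho of 0.434 (adjusted permutation p = 0.101). Without the 2 farthest libraries r fell to 0.355 for *Col20a1*, 0.433 for *Col4a5* and 0.468 for *Col4a6*.

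Several markers of other cells varied with single collagen genes across libraries, not all in the same direction. *Col1a1* correlated with the fibroblast gene *Pdgfra* at r = 0.666 (adjusted permutation p = 0.00422, rho = 0.476, adjusted p = 0.0534, r = 0.403 without the 2 libraries farthest from the *Col1a1* median). With the smooth muscle gene *Myh11* r was 0.612 (adjusted permutation p = 0.0108, rho = 0.725, adjusted p = 0.00169, r = 0.599 without the 2 farthest and 0.779 without control 6 and heterozygous 3). With the epithelial gene *Epcam* r was -0.655 (adjusted permutation p = 0.00471, rho = -0.459, adjusted p = 0.0606, r = -0.392 without the 2 farthest). The relations with *Pdgfra* and *Epcam* thus rest in part on the 2 libraries farthest from the *Col1a1* median. Without control 6 and heterozygous 3 these r were 0.692 and -0.64. *Col1a1* with the mesothelial gene *Upk3b* gave r = 0.522 over all 18 libraries (adjusted permutation p = 0.0326) and 0.609 over the 16 other than control 6 and heterozygous 3. Within controls, heterozygous and homozygous mice it was 0.701, 0.041 and 0.875. In the same 16 libraries *Col8a2* had r = 0.784 with *Myh11* and r = 0.81 with *Upk3b*. *Col4a1* gave r = 0.557 with the endothelial gene *Pecam1* and 0.554 with *Myh11* (adjusted permutation p = 0.0211 for both). Without the 2 farthest libraries these were 0.271 and 0.487. With *Upk3b*, *Col4a1* gave r = 0.457 (adjusted permutation p = 0.0619). *Upk3b* ranged from 0 to 76.2 CPM and the adipocyte gene *Adipoq* from 0 to 56.6 CPM. The libraries with the highest *Col1a1* (homozygous 3, control 4 and homozygous 4) were also the 3 with the highest *Upk3b*. All 5 mesothelial genes had positive log2 fold changes for homozygous mice against controls (median 0.76) and negative ones for heterozygous mice (median -0.45), with 0 called in edgeR and 0 at an unadjusted p under 0.05. Their part in the collagen values was not tested beyond the covariate given above.

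**Figure D5:**
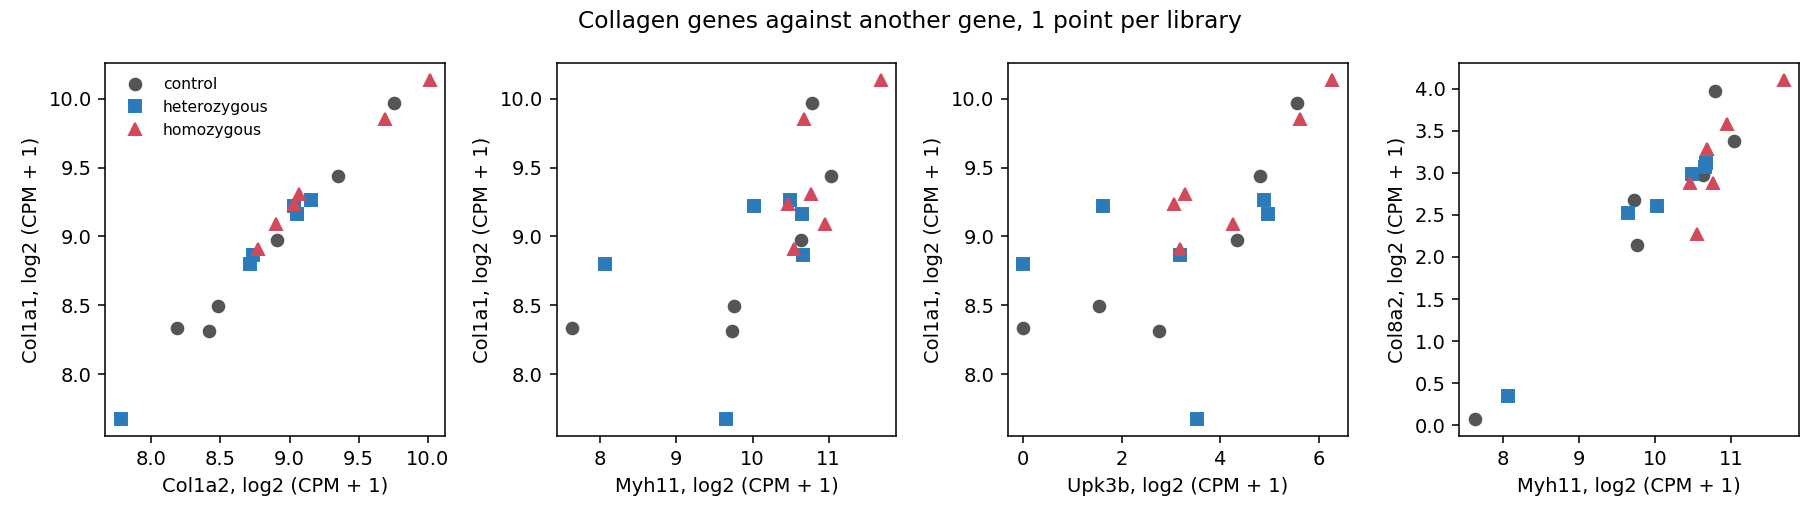
Level of *Col1a1* against *Col1a2*, the smooth muscle gene *Myh11* and the mesothelial gene *Upk3b*, and of *Col8a2* against *Myh11*, as log2 of CPM plus 1, with 1 point per library and a symbol per genotype. The first panel is close to a line (r = 0.99), whereas control 6 and heterozygous 3 form the 2 points at the left of the *Myh11* and *Upk3b* panels.

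The enzymes and partners of collagens were read from lists. Over all 12645 genes tested, 6083 had a positive log2 fold change for homozygous mice against controls and 6003 for heterozygous mice against controls. Genes of a list, the smooth muscle and mesothelial lists above included, can vary together across libraries. Counts of signs in a list are therefore not counts of separate observations. Of 17 tested genes for collagen folding and modification, which hydroxylate and chaperone the chains, 14 had positive log2 fold changes for homozygous mice against controls (median 0.27) and 6 for heterozygous mice against controls (median -0.04). Of 9 tested genes for procollagen processing and cross-linking, 9 were positive for homozygous mice (median 0.37, lowest p at *Bmp1*, the procollagen C-proteinase, at 0.34, SE 0.15), and 3 for heterozygous mice (median -0.17). Breakdown enzymes and their inhibitors had 11 of 12 positive (median 0.33) and 4 of 12 (median -0.03), and fibril-binding matrix proteins 11 of 12 (median 0.40) and 1 of 12 (median -0.16). None of the genes of these 4 lists had an adjusted p under 0.05, and for homozygous mice against controls 1 gene of each list had an unadjusted p under 0.05, where 8.06% of all genes did. For homozygous against heterozygous mice the counts were 3 of 17, 2 of 9, 2 of 12 and 3 of 12 genes, where 7.61% of all genes did. The genes with the lowest p of their lists were *P3h2*, a prolyl hydroxylase of collagen chains (0.47, SE 0.21), *Bmp1*, the collagenase gene *Mmp13* (-0.30, SE 0.14) and *Postn*, a matrix protein that binds collagen (0.50, SE 0.21). Fibroblast genes other than collagens had 11 of 12 positive values for homozygous mice (median 0.37, lowest p at *Pdgfra*, 0.35, SE 0.12, edgeR adjusted p = 0.397), and 4 of 12 for heterozygous mice (median -0.05). Among lists of other cells in homozygous mice against controls, epithelial genes had a median of -0.03, ileal enterocyte genes -0.30, adipocyte genes 0.35, enteric glia and neuron genes 0.61 and B cell genes -3.03, the last with 11 of 11 negative and 11 at an unadjusted p under 0.05, of which 0 had an adjusted p under 0.05 in edgeR. For heterozygous mice against controls the medians of enteric glia and neuron genes and of B cell genes were 0.04 and -1.48, with 1 of 6 and 0 of 11 at an unadjusted p under 0.05.

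Among the basement membrane partners of collagen IV, 15 of 16 were positive for homozygous mice against controls (median 0.21) and 9 of 16 for heterozygous mice against controls (median 0.0092). In each of these comparisons 1 gene, *Lamb3*, passed the test, against 0.411% and 0.293% of all genes. *Lamb3*, a laminin β chain of epithelial basement membranes, ranged from 104 to 215 CPM in controls, whereas heterozygous mice had 207 to 384 CPM and homozygous mice 324 to 491 CPM. Homozygous mice and controls did not overlap, and heterozygous mice overlapped both. It rose by a log2 fold change of 1.32 (SE 0.2, edgeR adjusted p = 0.00144) in homozygous and 0.98 (SE 0.2, adjusted p = 0.0373) in heterozygous mice. The collagen receptor with the lowest p was *Ddr1*, at 0.22 (SE 0.06, adjusted p = 0.146) in homozygous mice, and 0 of 8 receptors were called. *Ret*, a receptor of enteric neurons taken as a marker of other cells, rose by 0.90 (SE 0.12, adjusted p = 0.000465) in homozygous mice.

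No collagen gene passed the test for sex either. With genotype in the model, 0 of 31 had an adjusted p under 0.05 for females against males in edgeR, where 0.0554% of all genes did, and 1 had an unadjusted p under 0.05 (3.39% of all genes). This was *Col6a4*, with a log2 fold change of 0.27 (SE 0.09, edgeR adjusted p = 0.998). Fibrillar collagens had a median of -0.09 with 1 of 9 positive, and basement membrane collagens one of -0.02 with 3 of 8 positive. Under the alternatives these medians ranged from -0.327 (without the 4 libraries high in B cell genes) to -0.0152 (without control 5) and from -0.149 to 0.0298 in the same 2 settings, so that the second changed sign. Without control 4 the fibrillar median was -0.257.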

How the data were processed

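Whole-thickness ileum (1 piece per mouse) was sequenced as poly-A RNA with paired reads. Alignment by the authors used STAR and the GRCm38 assembly from Ensembl, and featureCounts gave the reads per gene, leaving out reads with several hits or several genes. Whether counting used strand is not given in the sources used here. The deposited counts carry no normalization. The deposited CPM values are these counts divided by the library total, and a deposited table of log2 CPM, shrunk by the authors with a prior that is not stated, served for 1 alternative of the correlations. FPKM columns were not used.

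Libraries were grouped by the genotype in the labels. The 12645 protein-coding genes above 3 CPM in 4 or more libraries were fitted in edgeR 4.0.16 (R 4.3.3; TMM factors, glmQLFit and glmQLFTest, 1 coefficient per genotype, 18 libraries), with Benjamini-Hochberg adjustment over all genes tested at 0.05. The code was tested on simulated data. CPM and RPKM in the text use library totals and the gene lengths of the count files. Scores and correlations used log2 CPM with TMM factors and a prior count of 2, with 100000 permutations. Ratios were compared by exact permutation over 924 arrangements. The 95% intervals on log2 fold changes come from the edgeR fit and rest on the spread between mice, and the floor of 3 counts covers counting error only. Promoters came from a RefSeq table of GRCm38.p6, searched on both strands.

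The members, gene lists and tests were chosen with earlier results of these data known. Named are all members and the genes of the other lists with an adjusted p under 0.05. Genes with the lowest p for homozygous mice against controls are named for the lists of collagen enzymes, partners, receptors, fibroblasts and smooth muscle. They are not named for the adipocyte, B cell, mesothelium and endothelium lists. Tested genes beside *Col1a1* and markers of cell types, such as *Epcam*, *Adipoq* and *Upk3b*, were named apart from this rule. Markers of the mesothelium and adipocytes were added after values were seen. Alternatives were DESeq2 1.42.0, limma-voom (limma 3.58.1), other scalings and filters, all biotypes, only the 12 libraries compared, covariates, a replicate block, a robust fit and leaving out libraries. Same-numbered libraries were checked for shared deviations. Tables were handled in Python 3.11.15 with pandas 2.3.3 and scipy 1.17.1.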

Additional observations from a re-analysis of the deposited data

Results flagged for a closer look

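Within groups of 6 libraries, 11 of 93 groups examined (31 genes in 3 genotypes) had a highest or lowest library set apart from the rest. The rule was a gap over the range, in log2 CPM, above Dixon's 95% critical value. The values below are plain CPM, on which the same gaps can fall under that value. Chance flags about 1 in 20 groups, and genes that vary together are not independent. Heterozygous 5 was low for 6 genes. *Col1a1* was at 203 CPM there, against 445 to 613 CPM in the other heterozygous mice, and *Col1a2* at 219 CPM, against 419 to 569 CPM. *Col3a1* was at 408 CPM in this library, with 831 to 1110 CPM in the others. *Col5a1* was at 67.9 CPM, with 128 to 147 CPM in the others. *Col15a1* was at 42.6 CPM, with 70.9 to 88.5 CPM in the others, and *Col6a1* at 246 CPM, with 358 to 427 CPM.

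*Col8a2* was low in control 6 (0.0504 CPM, others 3.43 to 14.7 CPM) and in heterozygous 3 (0.274 CPM, others 4.75 to 7.66 CPM), the libraries with the lowest smooth muscle score. *Col11a2* was high in control 2 (7.29 CPM, others 4.64 to 5.23 CPM) and in heterozygous 2 (7.82 CPM, others 3.98 to 4.9 CPM). *Col23a1* was high in heterozygous 1 (34.4 CPM, others 27.4 to 31.4 CPM). The cause of these values was not tested.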

How the results depend on the processing

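Under 33 alternatives for each comparison of genotypes and 29 for sex, 0 collagen genes had an adjusted p under 0.05. The lowest adjusted p, by edgeR, was 0.21 for homozygous mice against controls, 0.479 for heterozygous mice against controls, 0.416 for homozygous against heterozygous mice and 0.64 for sex. Of the 12645 to 19314 genes fitted, these settings called 31 to 136, 15 to 80 and 0 to 10 in the 3 genotype comparisons and 3 to 10 for sex. With so few genes called, 0 of 31 members is near the share of all genes. Some settings left out a library of the genotype not compared, so both compared groups stayed whole. The fibrillar median ranged from 0.185 to 0.56, from -0.169 to 0.147 and from 0.155 to 0.501 on the log2 scale in the 3 genotype comparisons. The basement membrane median ranged from 0.0388 to 0.312, from -0.0108 to 0.169 and from -0.0149 to 0.194. The *Col1a1* to *Col1a2* ratio passed the adjusted threshold for homozygous against heterozygous mice without the 4 libraries high in B cell genes (0.098, exact adjusted p = 0.0476), while in the same setting the difference was 0.048 for homozygous mice against controls (exact adjusted p = 0.488) and -0.05 for heterozygous mice against controls (exact adjusted p = 0.516), and the cause was not tested. Leaving out 1 library at a time gave differences of 0.0704 to 0.135 for homozygous mice against controls and 0.0507 to 0.11 for homozygous against heterozygous mice. Same-numbered libraries deviated together in some pairs only (r from -0.606 to 0.644 over 18 pairs, 9 of them over 0.1, and 2 of 18 libraries best with their own number), so the numbers were not taken to pair the libraries. With the replicate number as a block the fibrillar medians were 0.372, -0.0335 and 0.375, with 0 collagen genes called. The block leaves the mean ratio difference for homozygous mice against controls at 0.106 by construction, and its exact adjusted p was 0.188 with the block and 0.0812 without it. The spread between mice, with 6 libraries per genotype, limits what can be seen. In the simulated data, 88, 89 and 88 of 100 genes with an absolute log2 fold change of 1 were found in the 3 genotype comparisons. There were 6, 11 and 8 false calls. Whether this share holds at the spread of the fibrillar collagens was not tested.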
